A study of Saccharomyces cerevisiae with 6 samples.

Results

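The 10 genes of meiosis and spore formation followed here in exponentially growing budding yeast were IME1, IME2, NDT80, AMA1, MAM1, SMA1, CDA2, DIT1, LDS1 and SPS4. They were taken by systematic name from the 7126 features of the deposited table, with no filter on low values, so 10 of 7126 features are described. They were chosen by role and on low RPKM in these same libraries, with the difference between the groups already known, so their levels and differences are given as a description with no test. RNA was measured in 3 libraries of the strain labelled mms21RINGD, a mutant of MMS21, and in 3 libraries labelled WT from the W303 background. MMS21 encodes a SUMO ligase of the Smc5/6 complex. Both groups were grown in YPD with added CSM to an optical density of 0.6, and ribosomal RNA was depleted before library construction. The series title ties Mms21 to ribosome biogenesis. No label gives the mating type, the ploidy, the number of clones or whether replicates were separate cultures, and the p-values then measure only the spread among the 6 libraries, which may be technical.

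Budding yeast enters meiosis when a diploid cell is starved of nitrogen and of a fermentable carbon source. IME1 then switches on early genes, and the kinase IME2 and the transcription factor NDT80 carry the program to the middle genes, which drive the divisions and wrap each nucleus in a prospore membrane. The late genes build the spore wall, whose outer layers hold chitosan and dityrosine. In growing cells most of these genes are kept off by the repressors Ume6 and Sum1, which bind the promoter elements named URS1 and MSE, and Ndt80 competes with Sum1 for the MSE.

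The promoters of 4 of the genes are printed because the same element stands before the gene with the highest level (NDT80), the gene that was lower in mms21RINGD (SPS4) and the pair with the largest ratios (SMA1 and CDA2). Each window runs from 250 bases before to 50 bases after the annotated start, 5′ to 3′ on the strand of the gene, read from the R64 genome (the assembly of sacCer3), and capitals mark the MSE, searched on either strand as CACAAAA, as its variant CACAAAT, as the form CGCAAAA or as the form CGCAAAT. The windows are chrVIII:356311-356610 (plus strand, NDT80), chrXV:902825-903124 (minus strand, SPS4), chrXVI:499415-499714 (plus strand, SMA1) and chrXII:747687-747986 (plus strand, CDA2).
NDT80: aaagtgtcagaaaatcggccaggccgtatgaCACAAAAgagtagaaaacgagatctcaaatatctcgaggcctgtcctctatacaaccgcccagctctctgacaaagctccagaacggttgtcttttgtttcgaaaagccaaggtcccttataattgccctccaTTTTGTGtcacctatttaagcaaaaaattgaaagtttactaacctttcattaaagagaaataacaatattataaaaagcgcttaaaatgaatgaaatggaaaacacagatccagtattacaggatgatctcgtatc
SPS4: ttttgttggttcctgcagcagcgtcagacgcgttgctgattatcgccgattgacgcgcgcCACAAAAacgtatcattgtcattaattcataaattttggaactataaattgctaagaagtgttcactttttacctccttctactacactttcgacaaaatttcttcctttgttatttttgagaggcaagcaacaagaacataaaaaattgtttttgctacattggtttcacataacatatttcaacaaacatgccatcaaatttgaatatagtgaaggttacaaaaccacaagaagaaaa
SMA1: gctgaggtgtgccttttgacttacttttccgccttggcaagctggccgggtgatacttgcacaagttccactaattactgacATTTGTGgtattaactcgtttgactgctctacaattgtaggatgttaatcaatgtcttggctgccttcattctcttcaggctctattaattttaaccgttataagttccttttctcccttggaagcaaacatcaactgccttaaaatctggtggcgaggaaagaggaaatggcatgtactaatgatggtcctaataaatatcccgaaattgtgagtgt
CDA2: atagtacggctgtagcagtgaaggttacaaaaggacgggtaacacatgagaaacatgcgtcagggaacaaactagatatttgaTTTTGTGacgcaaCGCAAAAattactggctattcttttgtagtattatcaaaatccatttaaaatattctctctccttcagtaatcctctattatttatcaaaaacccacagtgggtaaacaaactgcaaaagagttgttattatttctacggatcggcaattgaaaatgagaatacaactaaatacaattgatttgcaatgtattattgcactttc

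An MSE word was present in the windows of 6 of the 10 genes, namely NDT80 and CDA2 with 2 matches each and SPS4, LDS1, MAM1 and SMA1 with 1 each. Among 5987 protein-coding genes with a window, 19.6% held such a word. Among the 93 other genes of meiosis and spore formation described below, 40.9% did. The matches began 219 and 86 bases before the start of NDT80, 190 bases before SPS4, 168 bases before SMA1 and 167 and 154 bases before CDA2. The URS1 core GGCGGC was in 0 of the 10 windows, in 5.14% of all windows and in 30.1% of those of the 93 genes. Sequence more than 250 bases before a start was not searched, so elements farther upstream would be missed. The stress element CCCCT, counted on both strands, was in the windows of IME2 and DIT1. It was in 21.6% of all windows and in 19.4% of those of the 93 genes. No base belonged to 2 of these 3 motifs in the printed windows. The matches are letters in a window, and binding was not measured.

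Depth, inferred from the steps of the table, was 19264738, 24034030 and 20129420 reads for mms21RINGD replicates 1, 2 and 3. For WT replicates 1, 2 and 3 it was 24625301, 20887808 and 21722195 reads. Which reads these totals cover is not known. Levels are RPKM, reads per kilobase of gene scaled to the total reads of the library, and the reads behind each value were recovered from the steps of the table. Intervals are exact 95% Poisson or binomial intervals and cover counting error only. The targeted gene, MMS21, measured 14.3 ± 1.99 RPKM in mms21RINGD and 2.82 ± 0.562 RPKM in WT (SD, n = 3 each, limma adjusted p = 0.000203), and since the value covers the whole gene it does not check the label. On the first principal component, with 75.3% of the variance, mms21RINGD libraries scored -29.9 to -26.6, WT replicates 2 and 3 scored 33.3 and 34.3, and WT replicate 1 stood apart from them at 16.6.

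Across the set, the RNA of 9 of 10 genes was higher in every mms21RINGD library than in every WT library, and that of SPS4 was lower in every one. Among all 7040 features with a value above 0, 49.2% had groups that did not overlap with mms21RINGD higher, and 13.7% had groups that did not overlap with mms21RINGD lower. The ratio of mean RPKM was at least 2 for 7 of the 10 genes, beside 12.9% of all features, and at most 0.5 for SPS4, beside 1.02%. The rule used this contrast, so these counts are not evidence about the set. The 10 genes together took 1148, 1404 and 1251 reads in mms21RINGD and 1015, 831 and 858 reads in WT. Their median level was 1.51 to 1.96 RPKM in mms21RINGD libraries and 0.762 to 0.939 RPKM in WT libraries, beside 24.0 to 24.9 RPKM and 17.9 to 20.96 RPKM for all features in the same order of groups. Their median log2 difference was 0.85 on the log2(RPKM + 1) scale, beside 0.23 for all features. It depended on the settings, with 1.497 beside 0.26 at a pseudocount of 0.1, 0.26 beside 0.17 at a pseudocount of 5 and 0.40 beside -0.097 after quantile normalization, and it was 0.43 over the 5 genes with a mean of at least 1 RPKM. With voom weights on the recovered reads, and so not on the log2(RPKM + 1) scale, it was 1.58 beside 0.26. In bulk RNA, a few cells with many transcripts and many cells with few cannot be told apart.

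**Figure D1:**
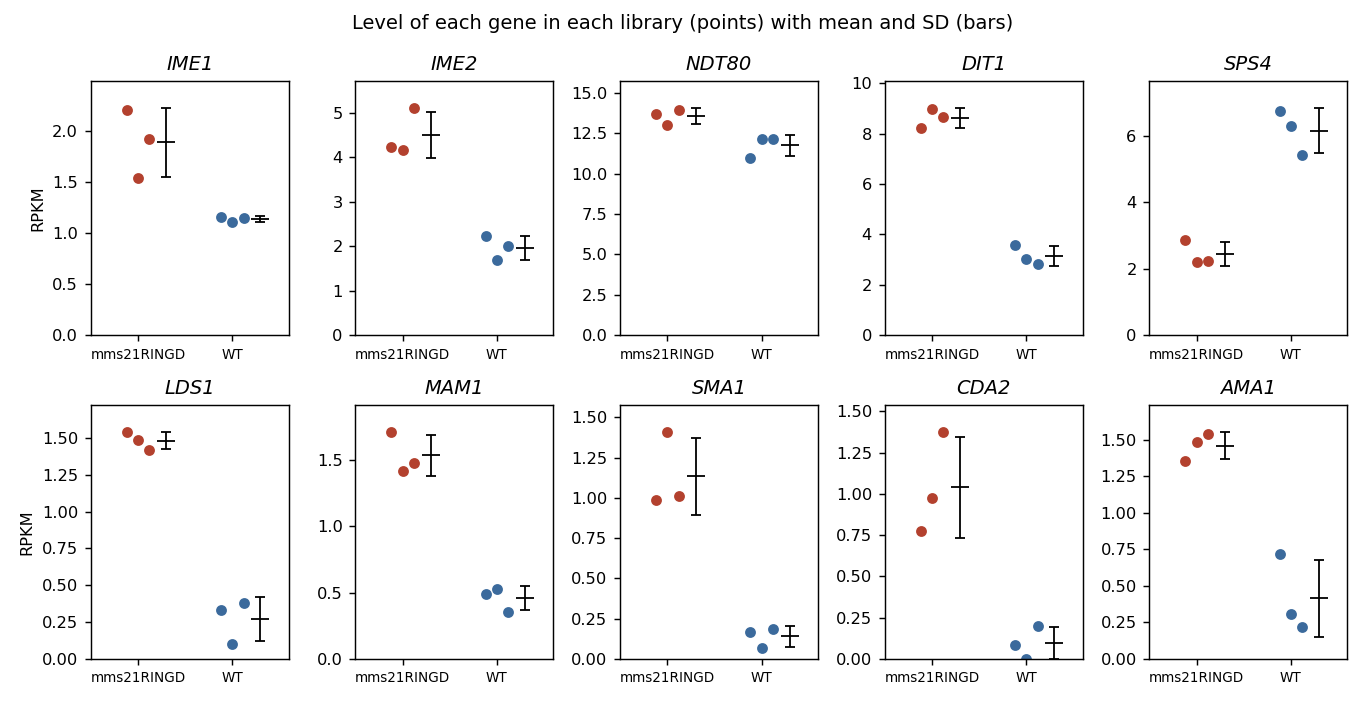
RPKM of each of the 10 genes (vertical axes, starting at 0 and different in each panel) in the 3 mms21RINGD libraries (left) and the 3 WT libraries (right); points are libraries, and the bar beside them is the mean with its SD. The mutant libraries sit above the WT libraries in every panel except SPS4, and the gap is narrowest relative to the level for NDT80.

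Of the regulators, NDT80 had the highest level and IME2 the largest ratio. IME1 (YJR094C, chromosome X, 604569 to 605651, minus strand), the master activator of meiotic entry, measured 2.20, 1.54 and 1.93 RPKM in mms21RINGD and 1.16, 1.11 and 1.15 RPKM in WT. The lowest mutant library lay 0.374 RPKM above the highest WT library, and the WT libraries were closer together than the mutant ones. Its reads numbered 128 in mms21RINGD and 83 in WT, a ratio of 1.63 at equal depth (95% interval 1.23 to 2.18). The log2 difference of IME1 was 0.43, and it turned to -0.097 with quantile normalization.

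IME2 (YJL106W, chromosome X, 221390 to 223327, plus strand), a protein kinase of early meiosis, measured 4.23, 4.17 and 5.10 RPKM in mms21RINGD and 2.22, 1.68 and 2.00 RPKM in WT. The groups were separated by 1.94 RPKM, more than the spread within either group. At equal depth the ratio of summed reads was 2.26 (95% interval 1.95 to 2.63).

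NDT80 (YHR124W, chromosome VIII, 356561 to 358444, plus strand), the activator of middle genes, was the highest of the 10 in both groups. It measured 13.7, 12.99 and 13.9 RPKM in mms21RINGD and 10.99, 12.1 and 12.1 RPKM in WT. Each library held 477 to 588 reads of it, so counting error was small, yet the groups were only 0.842 RPKM apart. Its ratio of summed reads was 1.15 (95% interval 1.07 to 1.24). Its log2 difference of 0.19 was below the 0.23 of all features and changed sign when libraries were rescaled, to -0.047 by median of ratios and to -0.23 by quantiles. Among all features NDT80 stood at percentile 30.5 in mms21RINGD and 35.1 in WT, while IME1 stood at 7.16 and 7.49 in the same order.

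The genes of the divisions were nearer to the floor of detection. A count of 3 reads corresponds to 0.125 to 0.156 RPKM for a gene of 1 kb in mms21RINGD libraries and to 0.122 to 0.144 RPKM in WT libraries. AMA1 (YGR225W, chromosome VII, 945145 to 947019, plus strand), a meiotic activator of the anaphase-promoting complex, measured 1.36, 1.49 and 1.54 RPKM in mms21RINGD and 0.715, 0.306 and 0.221 RPKM in WT. The mutant libraries held 49, 67 and 58 reads of AMA1 and the WT libraries 33, 12 and 9, replicate 1 being the high one. The ratio of means was 3.53, and 5.54 without WT replicate 1. The row YGR226C, with no position in the annotation used, measured 1.98, 1.59 and 1.89 RPKM in mms21RINGD and 3.29, 0.228 and 0 RPKM in WT, and was chosen after its values were seen for the same high WT replicate 1.

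MAM1 (YER106W, chromosome V, 372326 to 373234, plus strand), a monopolin subunit that holds sister kinetochores together in meiosis I, measured 1.71, 1.42 and 1.48 RPKM in mms21RINGD and 0.491, 0.527 and 0.355 RPKM in WT. These values rest on 27 to 31 reads in mms21RINGD libraries and 7 to 11 in WT libraries. Summed reads gave a ratio of 3.33 (95% interval 2.16 to 5.30), and the groups did not overlap.

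SMA1 (YPL027W, chromosome XVI, 499665 to 500402, plus strand), which acts in prospore membrane assembly, measured 0.985, 1.41 and 1.01 RPKM in mms21RINGD and 0.165, 0.0649 and 0.187 RPKM in WT. It had 14, 25 and 15 reads in mms21RINGD and 3, 1 and 3 reads in WT, so every WT library was at or under the floor. Summed reads gave a ratio of 8.18, with a wide 95% interval of 3.71 to 21.3.

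Of the spore wall genes, CDA2 had the largest ratio of the set and DIT1 the highest level. CDA2 (YLR308W, chromosome XII, 747937 to 748875, plus strand), a chitin deacetylase that makes the chitosan of the wall, measured 0.774, 0.975 and 1.38 RPKM in mms21RINGD and 0.0865, 0 and 0.196 RPKM in WT. It was the lowest of the 10 in both groups, with 14, 22 and 26 reads in mms21RINGD and 2, 0 and 4 reads in WT. In WT replicate 2, with 0 reads, the floor of 3 reads corresponds to 0.153 RPKM and the exact 95% Poisson upper limit to 0.188 RPKM. The ratio of summed reads was 10.95 (95% interval 4.76 to 31.0).

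LDS1 (YAL018C, chromosome I, 118564 to 119541, minus strand), a lipid droplet protein of outer spore wall assembly, measured 1.54, 1.49 and 1.42 RPKM in mms21RINGD and 0.332, 0.0979 and 0.377 RPKM in WT. The mutant libraries had an SD of 0.0587 RPKM, while WT replicate 2 held 2 reads and the other WT libraries 8 each. The ratio of summed reads was 5.42 (95% interval 3.24 to 9.54). DIT1 (YDR403W, chromosome IV, 1274602 to 1276212, plus strand), an enzyme of the dityrosine layer, measured 8.22, 8.99 and 8.67 RPKM in mms21RINGD and 3.58, 3.03 and 2.83 RPKM in WT, a ratio of summed reads of 2.73 (95% interval 2.41 to 3.10). On the log2(RPKM + 1) scale, which understates low genes, it had the largest difference of the set, 1.22, and the widest gap between groups, 4.64 RPKM.

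SPS4 (YOR313C, chromosome XV, 901858 to 902874, minus strand), a sporulation-specific gene named for its induction in sporulating cells, went the other way. It measured 2.86, 2.21 and 2.25 RPKM in mms21RINGD and 6.75, 6.31 and 5.43 RPKM in WT. Every mutant library lay below every WT library, and the reads numbered 156 in mms21RINGD and 423 in WT. The ratio of summed reads was 0.391 (95% interval 0.323 to 0.471), and the log2 difference of -1.06 stayed between -1.61 and -0.59 under the other scalings and pseudocounts tried.

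**Figure D2:**
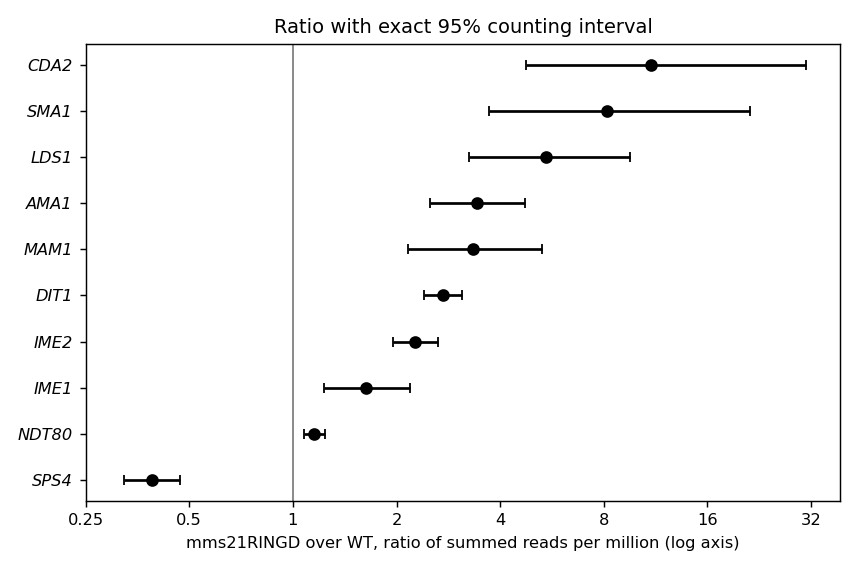
Ratio of summed reads over 3 libraries at equal depth, mms21RINGD over WT (log axis), with its exact 95% counting interval, for each of the 10 genes in order of ratio. SPS4 lies at 0.391, NDT80 at 1.15 and CDA2 at 10.95, and the intervals widen as the WT reads become few.

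The order of the levels, which are per length, differed between the groups mainly by SPS4. In mms21RINGD it ran NDT80, DIT1, IME2, SPS4, IME1, MAM1, LDS1, AMA1, SMA1 and CDA2, with means of 13.5, 8.62, 4.50, 2.44, 1.89, 1.54, 1.48, 1.46, 1.13 and 1.04 RPKM. Neighbours from IME1 downwards overlapped in their library ranges. In WT it ran NDT80, SPS4, DIT1, IME2, IME1, MAM1, AMA1, LDS1, SMA1 and CDA2, with means of 11.8, 6.16, 3.15, 1.97, 1.14, 0.458, 0.414, 0.269, 0.139 and 0.0942 RPKM, and neighbours from MAM1 downwards overlapped. SPS4 stood at percentile 8.17 of all features in mms21RINGD and at 20.9 in WT.

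The nearest features on the chromosome were set beside the 10 genes. No feature of the annotation overlapped any of the 10 genes, but 964 rows of the table, 679 of them open reading frames such as YGR226C, have no position in it and could not be checked. No source used here gives the strand setting of the counting, so sense and antisense reads cannot be told apart. Of the 20 nearest features with a row, 1 on each side of each gene, 7 rose, 4 fell and 9 were not called (limma, adjusted p under 0.05), beside 40.9% higher and 10.2% lower among all features. Rescaled by median of ratios, 7 were higher and 7 lower. Rescaled by quantiles, 5 were higher and 11 lower, and 11 were higher when WT replicate 1 was left out. The 4 neighbours of MAM1 and SMA1 were not called: NUP157 and GLE2 had log2 fold changes of -0.07 each, and ERG10 and SKS1 of 0.09 and 0.06. EPT1 and FIP1, next to NDT80 and IME1, had log2 fold changes of -0.15 and 0.18 and were not called either (limma adjusted p = 0.0767 and 0.0932), nor were FUN30 next to LDS1 (0.13), DIE2 next to AMA1 (0.17) and SET4 next to IME2 (0.27). Of these 9, FUN30, DIE2, FIP1, ERG10, SKS1 and SET4 (to -0.36 by quantiles) changed sign with at least 1 rescaling. NUP157, GLE2 and EPT1 kept their sign but moved farther from 0. They stood at -0.32, -0.32 and -0.40 by median of ratios and at -0.34, -0.34 and -0.39 by quantiles.

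Both neighbours of SPS4 fell. YOR314W, an open reading frame 168 bases upstream on the other strand, measured 0.944, 0.757 and 1.05 RPKM in mms21RINGD and 4.55, 4.50 and 3.21 RPKM in WT (log2 fold change -1.40 ± 0.14 (SE), limma adjusted p = 0.000713). RPL20B, a ribosomal protein gene 663 bases downstream on the same strand, averaged 964 ± 27.9 RPKM in mms21RINGD and 1409 ± 78.9 RPKM in WT (SD, n = 3 each, limma adjusted p = 0.000516). SFG1, a transcription factor gene beyond YOR314W and chosen after its values were seen, averaged 43.7 ± 2.00 RPKM in mms21RINGD and 72.3 ± 2.49 RPKM in WT (log2 fold change -0.71, limma adjusted p = 0.000332). Whether reads of SPS4 came from these transcription units was not tested.

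The largest rise among the neighbours stood beside CDA2. DPA10, 825 bases upstream of CDA2 on the other strand, measured 15.9, 16.2 and 19.0 RPKM in mms21RINGD and 0.461, 0.181 and 0.349 RPKM in WT (log2 fold change 3.76 ± 0.12 (SE), limma adjusted p = 1.82e-05). Its reads numbered 81, 103 and 101 in mms21RINGD and 3, 1 and 2 in WT, where every library was at or under the floor. IMH1, a Golgi vesicle transport gene 158 bases downstream of CDA2, rose 1.82-fold (limma adjusted p = 0.000273). YHR125W, 413 bases downstream of NDT80 on the same strand, rose to 0.942 ± 0.320 RPKM in mms21RINGD, against 0.0964 ± 0.0843 RPKM in WT (SD, n = 3 each, limma adjusted p = 0.00765). These values rest on 5, 5 and 8 reads in mms21RINGD and 1, 1 and 0 reads in WT, so every WT library was under the floor of 3 reads. AZR1, 497 bases upstream of AMA1, rose 1.66-fold (limma adjusted p = 0.00937), a call lost with quantile normalization. DIT2, 898 bases from DIT1 on the other strand, is the partner enzyme of the dityrosine layer and rose 2.00-fold (limma adjusted p = 0.0102), a call also lost with quantile normalization (log2 fold change 0.15). RPB7, a subunit of RNA polymerase II and the downstream neighbour of DIT1, fell to 95.7 ± 1.89 RPKM in mms21RINGD, against 120.1 ± 3.37 RPKM in WT (SD, n = 3 each, limma adjusted p = 0.00285). Farther from their genes, PSK1 beside LDS1 rose 2.09-fold, YJL107C beside IME2 rose 1.92-fold and the ribosomal protein gene RPL43B beside IME1 fell (limma adjusted p = 0.00349, 0.00531 and 0.00086).

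**Figure D3:**
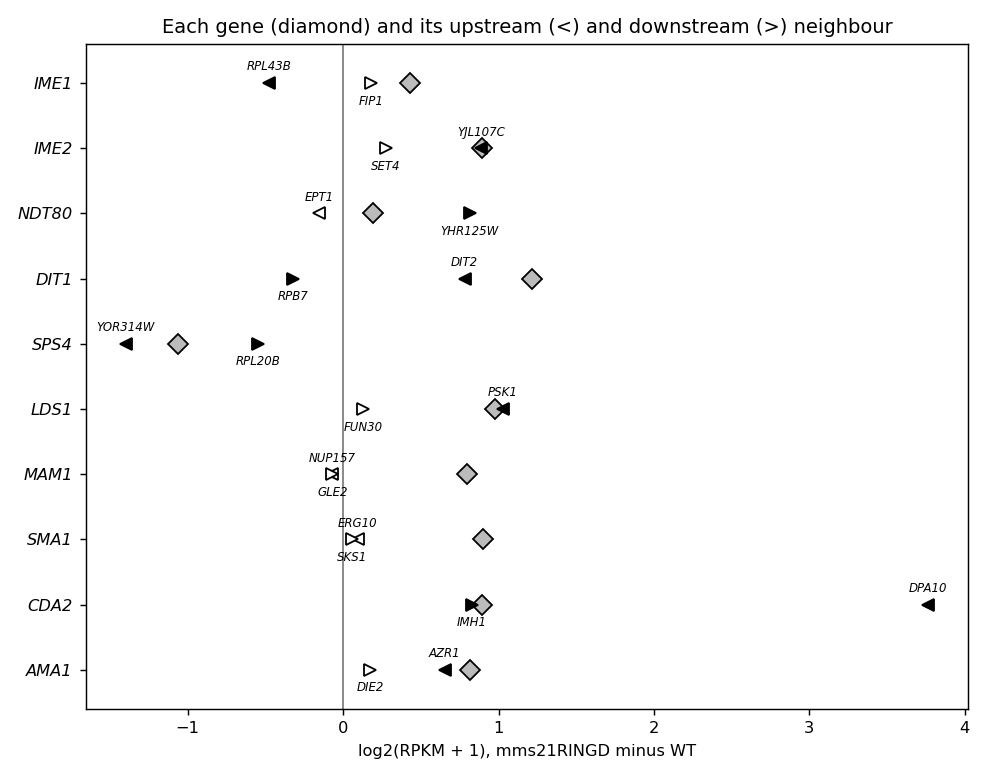
Difference on the log2(RPKM + 1) scale, mms21RINGD minus WT (horizontal axis), for each of the 10 genes (grey diamonds) and for its nearest upstream and downstream features (triangles; black where called by limma at an adjusted p under 0.05, white where not). Around SPS4 the gene and both neighbours are negative. In the deposited values, before any rescaling, the neighbours of MAM1 and SMA1 are near 0 beside genes at 0.80 and 0.90.

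In the wider program more genes rose than fell in the deposited values, and the late spore wall class had the highest median. Of 93 other genes of meiosis and spore formation, 59 rose, 0 fell and 34 were not called (limma, adjusted p under 0.05), beside 40.9% higher and 10.2% lower among all features, with a median log2 fold change of 0.44 beside 0.23 for all features. At an unadjusted p under 0.05, 0 were lower, and voom weights on the recovered reads gave 62 higher and 0 lower. The balance depended on the scaling. It was 40 higher and 9 lower after median-of-ratios scaling, and 21 higher and 25 lower after quantile normalization, where their median was -0.086 beside -0.097 for all features. Leaving out WT replicate 1 gave 63 higher and 3 lower. The list was written with earlier results of these data known.

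In the class of meiotic entry and its repressors 9 of 19 genes rose and 0 fell, a share of 47.4% near the 40.9% of all features, with 5 higher and 7 lower under median-of-ratios scaling and 3 and 11 under quantile normalization. Leaving out mms21RINGD replicate 3 gave 5 higher. RIM4, an RNA-binding protein that controls meiotic translation, rose to 23.3 ± 1.34 RPKM in mms21RINGD, against 6.19 ± 1.09 RPKM in WT (SD, n = 3 each, limma adjusted p = 0.00015). RIM15, a kinase of nutrient signalling upstream of IME1, rose 1.91-fold, and SSN8, the cyclin C that represses meiotic genes, 1.52-fold, though SSN8 was not called with quantile normalization. RIM101, a transcriptional repressor that acts in the alkaline response, rose 1.32-fold, a call that neither rescaling kept.

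Regulators that act upstream of the 10 genes differed in how firmly they were called. RME1, which blocks IME1 in haploid cells, rose to 81.0 ± 4.34 RPKM in mms21RINGD, against 50.6 ± 8.47 RPKM in WT (SD, n = 3 each, limma adjusted p = 0.00555). UME6, which binds URS1, rose by 0.35 on the log2 scale (limma adjusted p = 0.0189). This call was lost after median-of-ratios scaling (limma adjusted p = 0.164) and when mms21RINGD replicate 2 or 3 or WT replicate 2 or 3 was left out (adjusted p = 0.0530 to 0.0759), and UME6 was called lower after quantile normalization, at -0.28. SUM1, which binds the MSE, averaged 19.2 ± 0.889 RPKM in mms21RINGD and 17.7 ± 2.49 RPKM in WT (SD, n = 3 each, limma adjusted p = 0.375), and its log2 fold change of 0.12 became -0.12 by median of ratios and -0.24 by quantiles. When WT replicate 1 was left out SUM1 was called higher. IME4, the RNA methyltransferase of meiotic entry, stood at 0.952 times its WT level in mms21RINGD (limma adjusted p = 0.466), and was called lower after both rescalings.

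Meiosis needs a cell with both mating types, so markers of mating type were set beside these values. Beside 40.9% higher and 10.2% lower among all features, 1 of 7 a cell-specific genes rose and 3 fell, and their summed level was 2507 to 2634 RPKM in mms21RINGD and 2375 to 2731 RPKM in WT. The 3 lower calls numbered 0 without any 1 mms21RINGD library, without WT replicate 2 or with the replicate number as a block. They numbered 1 without WT replicate 3, without a variance trend or with totals that leave out structural and mitochondrial RNAs. BAR1, 1 of the 7 genes and not called, was at 0 in 5 libraries and at 0.028 RPKM in mms21RINGD replicate 3. Of 4 alpha cell-specific genes 3 rose and 0 fell, and their sum was 24.4 to 27.6 RPKM in mms21RINGD and 12.9 to 17.0 RPKM in WT. Their higher calls numbered 2 after either rescaling and with the replicate number as a block. The same number remained without mms21RINGD replicate 2 or 3 or WT replicate 3. Quantile normalization also gave 1 lower. MF(ALPHA)1, called higher, had 10, 17 and 23 reads in mms21RINGD and 6, 8 and 1 reads in WT. Of 9 haploid-specific genes, RME1 included, 3 rose and 2 fell, with sums of 384 to 406 RPKM in mms21RINGD and 354 to 401 RPKM in WT, and 2 higher and 5 lower after either rescaling. Here the lower calls numbered 0 without any 1 mms21RINGD library or WT replicate 3. They numbered 1 without WT replicate 2, without a variance trend or with the replicate number as a block. The part of mating type in the meiotic values was not tested.

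Among 32 early genes of recombination and synapsis 21 rose and 0 fell (65.6% higher, beside 40.9% of all features), with 14 higher and 1 lower under median-of-ratios scaling and 5 and 8 under quantile normalization. REC104, part of the machinery that makes meiotic DNA breaks, rose to 8.86 ± 0.857 RPKM in mms21RINGD, against 2.13 ± 0.395 RPKM in WT (SD, n = 3 each, limma adjusted p = 0.000223). REC8, the meiotic cohesin subunit, rose 4.58-fold. CST9, of the crossover machinery, rose 1.87-fold and HOP1, of the chromosome axis, 1.92-fold, the call of HOP1 being lost with quantile normalization.

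Among 30 middle genes 18 rose and 0 fell (60.0% higher, beside 40.9% of all features), with 12 higher and 1 lower under median-of-ratios scaling and 6 and 5 under quantile normalization. MPC54, of the meiotic spindle pole plaque, rose to 4.14 ± 0.640 RPKM in mms21RINGD, against 1.10 ± 0.418 RPKM in WT (SD, n = 3 each, limma adjusted p = 0.00189). SPS22, a spore wall gene, rose 4.18-fold, PES4, an RNA-binding protein, 4.28-fold, and SPS19, a peroxisomal reductase of fatty acid breakdown, 2.27-fold. SPO77, of prospore membrane closure, rose 1.73-fold, a call lost with quantile normalization.

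Of 12 late spore wall genes 11 rose and 0 fell (91.7% higher, beside 40.9% of all features), with a median log2 fold change of 1.24. After median-of-ratios scaling 9 were higher and 0 lower with a class median of 1.04, and after quantile normalization 7 were higher and 1 lower with a median of 0.76. SPS100, a gene of spore wall maturation, rose to 28.8, 31.1 and 35.0 RPKM in mms21RINGD, against 3.15, 2.59 and 2.77 RPKM in WT (log2 fold change 3.09 ± 0.10 (SE), limma adjusted p = 1.84e-05). GAS2, a glucan-modifying enzyme of the spore wall, rose 3.07-fold and OSW2, of the outer spore wall, 4.80-fold. OSW1, chosen after its values were seen as the uncalled member, averaged 0.455 ± 0.162 RPKM in mms21RINGD and 0.655 ± 0.467 RPKM in WT (SD, n = 3 each, limma adjusted p = 0.594).

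**Figure D4:**
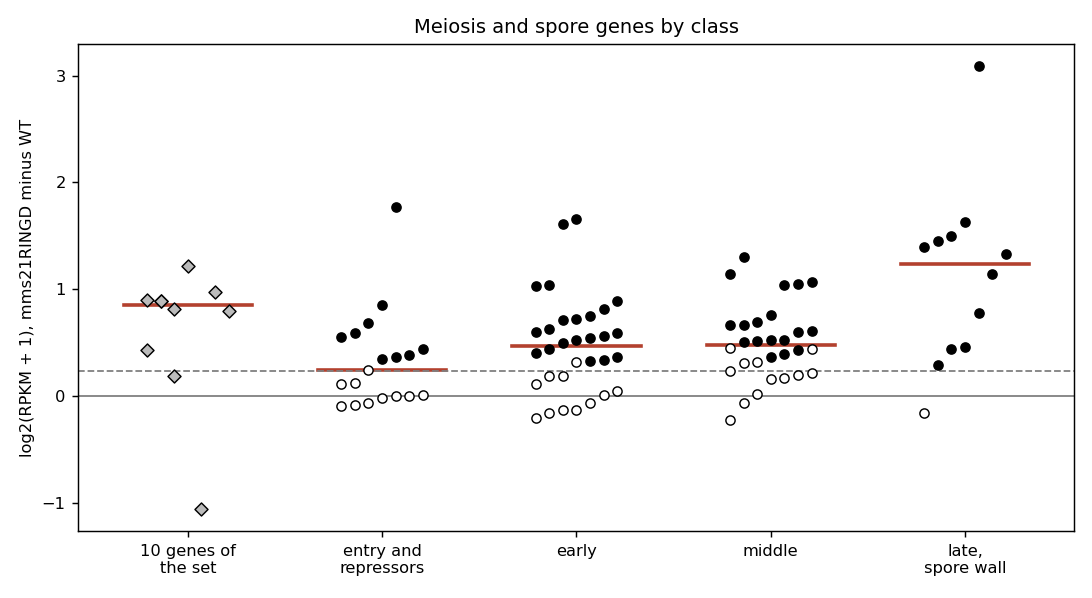
Difference on the log2(RPKM + 1) scale, mms21RINGD minus WT (vertical axis), for the 10 genes of the set (grey diamonds, not tested) and for 93 other genes in 4 classes (black circles, called by limma at an adjusted p under 0.05; white circles, not called); red lines are medians and the dashed line is the median of all features, 0.23. The late spore wall class has a median of 1.24, against 0.24, 0.46 and 0.48 for the entry, early and middle classes.

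The 3 paralogs of CDA2 and LDS1 rose. CDA1, the partner chitin deacetylase upstream of CDA2 on chromosome XII, measured 3.15, 3.77 and 3.24 RPKM in mms21RINGD and 0.807, 0.476 and 0.711 RPKM in WT (limma adjusted p = 0.000376). It shares 66.5% of aligned bases with CDA2, with a longest identical run of 17 bases. LDS2 and RRT8, the paralogs of LDS1, share 63.9% and 62.7% of aligned bases with it. LDS2 rose to 3.68 ± 0.270 RPKM in mms21RINGD, against 0.876 ± 0.301 RPKM in WT (SD, n = 3 each, limma adjusted p = 0.000773). RRT8 measured 21.9, 23.8 and 23.0 RPKM in mms21RINGD and 16.6, 8.13 and 6.82 RPKM in WT (log2 fold change 1.14, limma adjusted p = 0.0193), and its call was lost when any single library other than WT replicate 1 was left out. The longest runs shared with LDS1 were 11 and 10 bases, and no source used here says how reads with several matches were placed.

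For the 5 genes of the set with at least 10 reads in every library, the features with the most similar profile were sought by Pearson's r of log2(RPKM + 1) over the 6 libraries, among 6726 features averaging 1 RPKM or more. The libraries share the group difference, so high values are common, and r is a description. DIT1 was closest to SSA3, a stress-induced Hsp70 (r = 0.9996), and SDS24 (0.9995), and IME2 to YLR252W (0.9991) and COQ11 (0.998). SPS4 was closest to RPS28A, a ribosomal protein gene (0.995), and SUR7, of the plasma membrane (0.994). IME1 was closest to CDC42 (0.985) and ARL3 (0.984), and NDT80 to YFL031C-A (0.998) and PEX9 (0.996). Of the 6726 features, 2391 had r above 0.9 with DIT1, 2150 with IME2, 467 with SPS4, 378 with IME1 and 213 with NDT80.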

How the data were processed

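RNA-seq of 6 yeast libraries (3 mms21RINGD, 3 WT) was analysed from 1 table of RPKM values deposited by the authors, with 7126 features and 1 column per library, assigned by sample title. The submitters' processing notes name edgeR 3.8.6, CASAVA 1.8.2, TopHat2 2.0.8 and the build sacCer3, with no roles. The strand setting, annotation and read counter are not given in the sources used. Names, positions and gene-span lengths came from RefSeq R64, which matched 6048 rows through systematic names and 114 through symbols. RPKM times length gave whole reads (tolerance 0.02) for 99.8% of values per library. The floor was 3 reads.

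Using limma 3.58.1 (R 4.3.3), log2(RPKM + 1) was modelled for the 7040 features above 0 somewhere, with a variance trend and no covariate, two-sided, with Benjamini-Hochberg adjustment and calls under 0.05. This scale understates changes of low genes. Folds are ratios of mean RPKM, and a log2 fold change is mms21RINGD minus WT. Intervals on ratios of summed reads are exact conditional binomial intervals. Replicates differed by more than counting noise (the median chi-square was 1.63 times its expected value or more), so no library was counted as a copy. This value was 15.1 and 20.1 for WT replicate 1 against WT replicates 2 and 3, and at most 2.14 for the other pairs.

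The members and lists were chosen with earlier results of these data known. Named were the 10 genes, MMS21, their paralogs, 4 regulators, up to 5 called genes per class with the smallest p and groups that did not overlap, neighbours within 500 bases, and the 2 closest profiles per gene, with 1 early gene not reported here; other neighbours were named beside the gene they flank. Motifs were searched with Biopython 1.88. Voom weights on the recovered reads were added after the data were seen.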

Additional observations from a re-analysis of the deposited data

How the results depend on the processing

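Higher and lower features numbered 2880 and 715 as reported, 1741 and 1773 after median-of-ratios scaling, and 1385 and 2318 after quantile normalization, so 80.1%, 49.5% and 37.4% of calls were higher. The median of all features was 0.23, 0.0051 and -0.097. Leaving out 1 library gave 1842 to 3887 higher (1842 without mms21RINGD replicate 3, 1891 without mms21RINGD replicate 2) and 431 to 1022 lower (431 without mms21RINGD replicate 3, 457 without mms21RINGD replicate 2 or WT replicate 2). Of the other meiosis and spore genes 41 to 63 were then higher and 0 to 3 lower, against 59 and 0 as reported. Median-of-ratios scaling gave 9 lower, and quantile normalization 21 higher and 25 lower. Flanking features gave 7 to 11 higher with 1 library left out, against 7, and 7 lower by median of ratios and 11 lower by quantiles, against 4.

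Of the 10 genes 9 were higher as reported and 4 of the 5 that had a mean of at least 1 RPKM, which is the filter that removes LDS1, MAM1, SMA1, CDA2 and AMA1. Median-of-ratios scaling made 2 lower, NDT80 turning to -0.047, and with quantile normalization 3 were lower, NDT80 turning to -0.23 and IME1 to -0.097. Also turned were UME6 (-0.28 with quantile normalization), SUM1 (-0.12 by median of ratios, -0.24 by quantiles), FIP1 (-0.052 and -0.26), FUN30 (-0.12 and -0.17), SKS1 (-0.19 and -0.26; with 1 WT library left out, -0.010 to 0.20), DIE2 (-0.071 and -0.17) and ERG10 (-0.16 with median-of-ratios scaling). The voom fit used recovered reads and not log2(RPKM + 1), so its scale differed as well as its weights. With it the log2 differences of CDA2, SMA1 and LDS1 were 3.60, 2.86 and 2.52, against 0.89, 0.90 and 0.98. The cause of these changes was not tested.

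Deviations of same-numbered libraries from their group means correlated at -0.14, 0.046 and -0.096, and those of differently numbered libraries at -0.087 to 0.21. Deviations from a mean of 3 libraries are not independent, so these values cannot show whether libraries were paired. With the replicate number as a block, 2191 features were higher and 529 lower, 48 of the other meiosis and spore genes were higher, and the call of UME6 was lost (limma adjusted p = 0.0734). Depth limits SMA1, CDA2 and LDS1 most, at 0 to 8 reads per WT library.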
